A study of Drosophila melanogaster with 3 samples.

Results

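The genes described here are the 6 variant histone genes of Drosophila melanogaster that lie outside the repeated histone array: His2Av, His3.3A, His3.3B, His4r, BigH1 and cid. They are 6 of 13945 protein-coding genes and were chosen by name, and a peak was assigned to one of them when its summit lay in the gene body or within 2 kb of it on either side. Their windows held 6 of the 6458 summits in the list thresholded by IDR (irreproducible discovery rate, a score of rank agreement between replicates), 15 of the 30000 summits in the list made from the alignments of all 3 replicates together (the pooled list), and 13, 18 and 19 of 30000 in the lists of replicates 1, 2 and 3. The IDR list consists of the strongest 6458 peaks of the pooled list. The data are chromatin immunoprecipitation sequencing (ChIP-seq) peak lists from whole embryos of both sexes, 0 to 14 h old, of a transgenic fly line that stably expresses CG15601 carrying a C-terminal GFP (green fluorescent protein) tag. An anti-GFP antibody was used on chromatin sonicated to 200 to 800 bp, and the 3 samples are biological replicates of this 1 group. What drives the transgene is not given in the sources used here, and a whole embryo mixes all of its tissues. No sample without the tag was analysed here, so DNA recovered by the antibody without the tag cannot be told apart from DNA recovered with the tagged protein. The lists hold no read counts, so read depth is unknown, and a value is given as a rank by the authors' signal value within a list, with rank 1 the strongest.

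Most histones are made from the repeated array in S phase, when DNA is copied, and their mRNAs end in a stem-loop rather than a poly(A) tail. Variant histones come from genes elsewhere, can be made throughout the cell cycle and replace array histones at particular places. His2Av encodes the only H2A variant of the fly, which serves both as H2A.Z and as H2A.X, and His3.3A and His3.3B encode the same H3.3 protein, which is loaded at active genes outside replication. His4r encodes an H4 identical to that of the array, BigH1 encodes the linker histone of the early embryo and the germ line, and cid encodes the centromeric H3 variant of the fly, CENP-A.

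Of the 6 genes, 5 start head to head with a neighbour, and the short stretch between the opposed starts is where or beside where their promoter summits lay. His2Av starts 122 bp from ball, which encodes nucleosomal histone kinase 1. His3.3A starts 42 bp from CG14036, and His4r starts 52 bp from put, which encodes the receptor Punt of the activin and Dpp pathways. BigH1 starts 253 bp from Rad17, a DNA damage checkpoint gene, and cid starts 226 bp from cbc (crowded by cid). Among the other protein-coding genes 27.3% had an opposite-strand start within 500 bp upstream, and His3.3B had none. The untranscribed sequence between the opposed starts is shown for His2Av, His3.3A and His4r because it is what each gene shares with its neighbour, together with 100 bp upstream of the first His3.3B start. Each is written 5′ to 3′ on the strand of the histone gene, up to the base before its first start, from the RefSeq copy of genome release 6 (dm6 positions). Capitals mark matches to any of 10 short words given further on. In these stretches they are CGATA or its complement TATCG, the word bound by the boundary factor BEAF-32.
His2Av to ball, chr3R:26866808-26866928, plus strand: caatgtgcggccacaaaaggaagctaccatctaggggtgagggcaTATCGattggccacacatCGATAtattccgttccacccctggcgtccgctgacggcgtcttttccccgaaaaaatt
His3.3A to CG14036, chr2L:5055017-5055057, plus strand: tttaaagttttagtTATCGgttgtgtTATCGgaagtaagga
His4r to put, chr3R:14625704-14625754, plus strand: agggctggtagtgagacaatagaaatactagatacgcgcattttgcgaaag
His3.3B, 100 bp upstream, chrX:9156670-9156769, minus strand: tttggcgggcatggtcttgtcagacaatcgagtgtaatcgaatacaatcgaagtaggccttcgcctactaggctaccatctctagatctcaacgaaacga

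The CGATA word was present 2 times each in the stretches of His2Av and His3.3A, and in neither that of His4r nor that of His3.3B. Among the other protein-coding genes, the sequence of the same length directly upstream held the word in 30.8% of cases for the 121 bp of His2Av and in 15.8% for the 41 bp of His3.3A. It held the word at least 2 times in 14.5% of cases for the length of His2Av and in 6.05% for that of His3.3A. Only 27.3% of these other genes had a divergent start, and no share was computed for them alone.

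Of the 6 variant histone genes, 4 had an IDR summit within their windows, against 42.4% of the other protein-coding genes, and the same 4 had one within 500 bp of a transcription start site (TSS) of their own, against 26.7%. They were His2Av, His4r, His3.3B and His3.3A. The gene cid had a promoter summit in the pooled list but not in the IDR list, so that 5 of 6 had a pooled promoter summit against 47.9% of the other genes. BigH1 had no summit in the pooled list. With only IDR peaks that overlapped a peak among the strongest 6458 of both remaining replicates by at least 50% of both peaks, both counts of 4 were 3 without replicate 1, 0 without replicate 2 and 1 without replicate 3. No share of other genes was computed with a replicate left out. With the stronger 3229 IDR peaks both counts were 1 of 6, His2Av. Of the other protein-coding genes, 15.2% had a pooled promoter summit of rank 3234 or stronger. A TSS on the opposite strand goes with these calls in the whole list, since 49% of other genes with such a start had a promoter IDR summit, against 18.3% of those without. Of the 5 variant histone genes with a divergent start 3 had one, as did His3.3B, which has no divergent start. With 6 named genes no test of these shares was made.

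**Figure D1:**
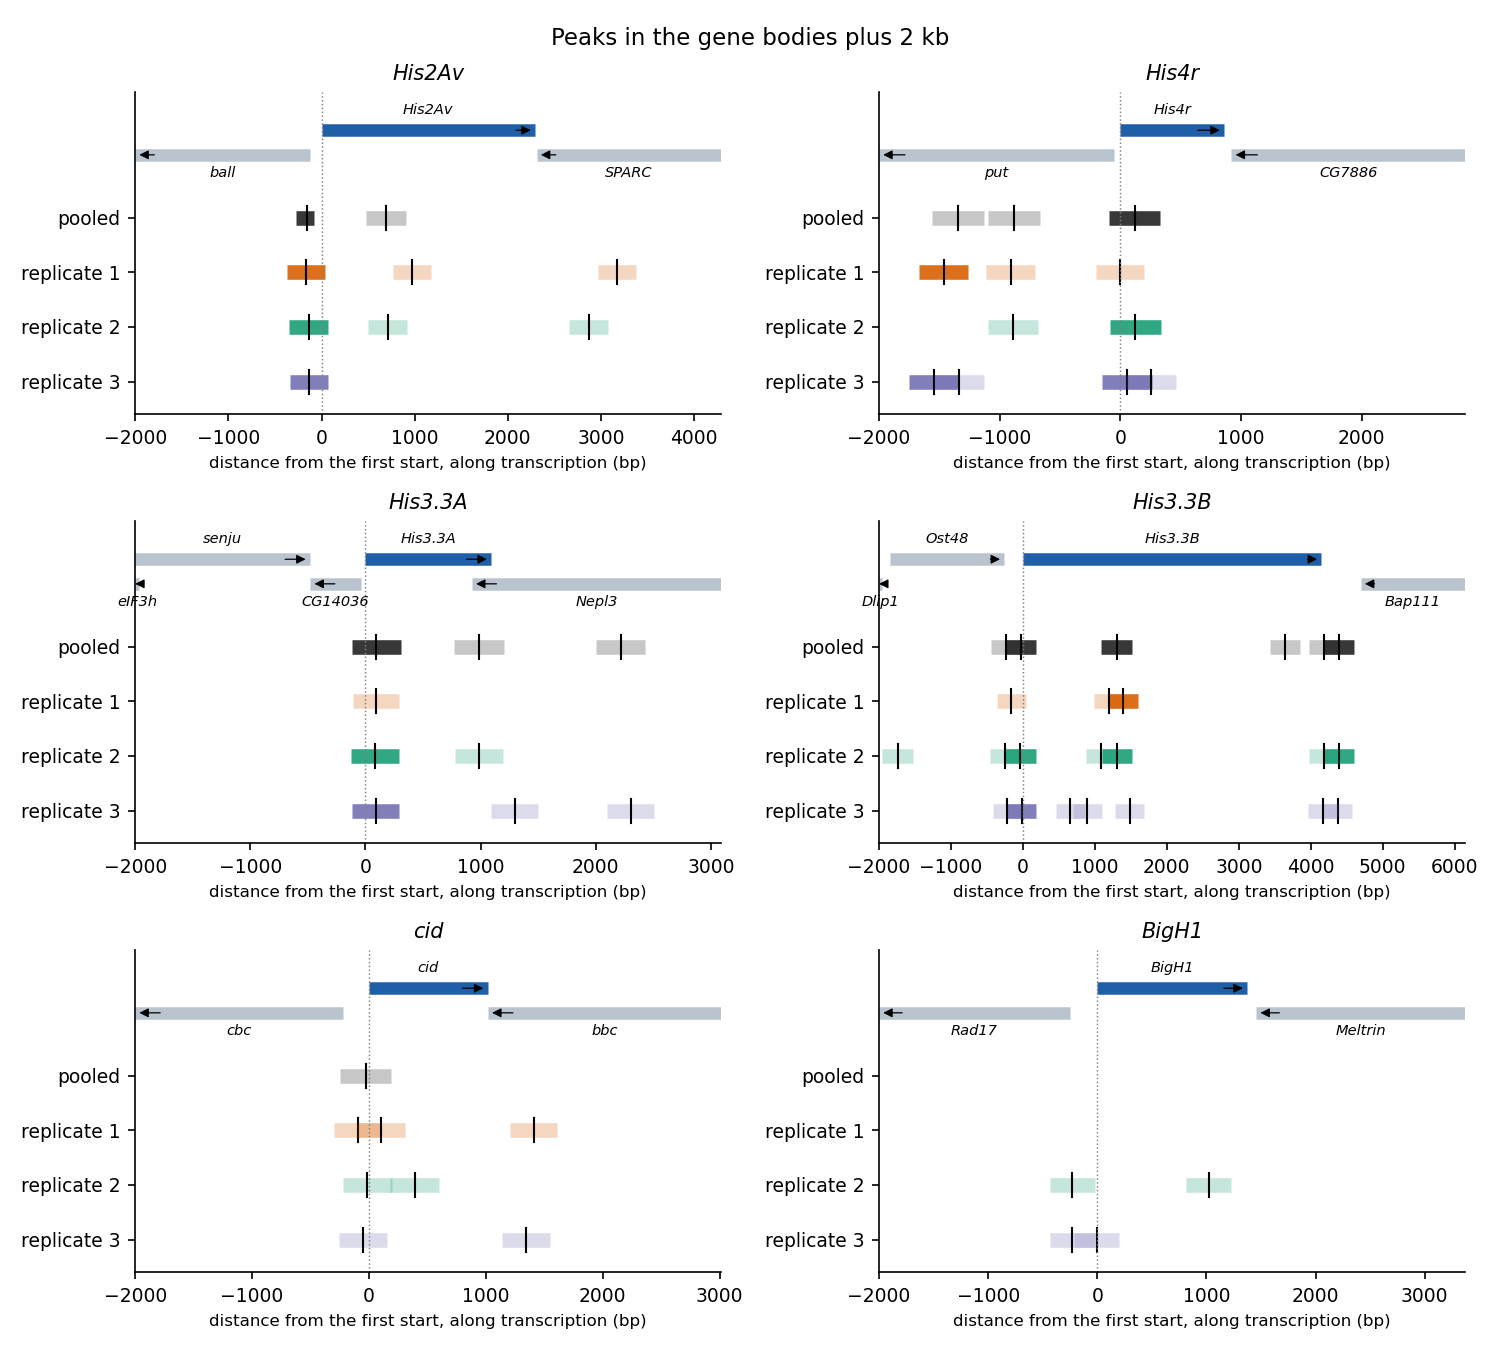
Peaks around each variant histone gene. The x axis is the distance in bp from the first start along the direction of transcription, blue bars are the gene, grey bars its protein-coding neighbours with arrows for their direction, and the 4 lower rows are the pooled list and the lists of replicates 1, 2 and 3. Horizontal bars are peaks, dark where ranked 6458 or stronger and pale where weaker, and black ticks are summits. The dark promoter peaks of His2Av lie in the same place in every row, cid has only pale ones, and BigH1 has pale ones in replicates 2 and 3 only.

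His2Av had the strongest promoter peak of the 6. The gene lies at chr3R:26866929-26869220 on the plus strand, with 2 annotated transcripts that share 1 start. Its IDR peak at chr3R:26866660-26866851 had rank 1964 and signal 424.7, and 1358 protein-coding genes had a stronger promoter peak in the pooled list. The peak ranked 2495, 1830 and 2149 in replicates 1, 2 and 3 (mean 2160 ± 333, SD, n = 3), so every replicate placed it among its strongest 6458. The summits lay 166, 137 and 130 bp upstream of the His2Av start in the 3 replicates (mean -144 ± 19.1 bp, SD, n = 3) and within 36 bp of each other. The position is nearer to the neighbour than to the histone gene: the pooled summit was 151 bp upstream of His2Av and 29 bp inside ball, in its 5′ UTR, and the replicate summits were 44, 15 and 8 bp inside ball. The same peak therefore also counts as a promoter peak of ball, and the lists do not separate the genes. A weaker peak in a His2Av intron had rank 16873 in the pooled list, 695 bp downstream of the start. It had ranks of 26197 in replicate 1 (973 bp downstream) and 10826 in replicate 2 (713 bp downstream), with none in replicate 3.

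His4r had a promoter peak of rank 3793, and beside it a strong peak of replicates 1 and 3 that is only weak in the pooled list. The gene lies at chr3R:14625755-14626614 on the plus strand, with 4 transcripts from 2 starts, at 14625755 and 14625788. The IDR peak at chr3R:14625659-14626088 had signal 277.0, with its summit in the 5′ UTR, 86 bp downstream of the nearer start and 171 bp upstream of the start of put. It ranked 7947, 5256 and 2135 in replicates 1, 2 and 3 (mean 5110 ± 2910, SD, n = 3), outside the strongest 6458 in replicate 1. Summits there lay 3 bp upstream of a start in replicate 1, and 92 and 23 bp downstream of one in replicates 2 and 3, a spread of 128 bp. An intron of put, within the 2 kb flank of His4r, held another strong peak in 2 replicates. It had rank 3109 in replicate 1, with its summit at 14624290, and rank 2600 in replicate 3, with its summit at 14624212, 1465 and 1543 bp upstream of His4r. In replicate 1 it was stronger than the His4r promoter peak. Replicate 2 had no summit at this place, and the pooled peak that overlapped it by at least 50% of both had rank 22844, so it is absent from the IDR list.

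The 2 genes for H3.3 each had an IDR promoter peak, and at His3.3A 1 replicate went against the other two. His3.3A lies at chr2L:5055058-5056149 on the plus strand, with 3 transcripts from 2 starts. Its IDR peak at chr2L:5054939-5055368 had rank 4939 and signal 225.4, and its summit lay in the 5′ UTR, 20 bp downstream of the second start and 138 bp upstream of the start of CG14036. The peak ranked 3973 and 4414 in replicates 2 and 3, and 24590 in replicate 1 (mean 11000 ± 11800, SD, n = 3). Its position varied little all the same, with summits 16, 5 and 14 bp downstream of the second start (mean 11.7 ± 5.86 bp, SD, n = 3). The ratio of the highest to the lowest replicate rank was 6.19. Among 3250 other genes with a promoter IDR peak and promoter peaks in all 3 replicate lists, the median ratio was 1.96, the upper quartile was 2.69, and 3.17% exceeded His3.3A. Weak peaks of ranks 22408 and 27947 lay near its 3′ end and in the coding sequence of the next gene.

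His3.3B was the only one of the 6 with several IDR peaks. It lies at chrX:9152523-9156669 on the minus strand, has 4 transcripts from 3 starts, and is the longest of the genes at 4147 bp. The strongest IDR peak, chrX:9155149-9155578, had rank 4528 and signal 241.4, and its summit lay in an intron, 249 bp downstream of the middle start and 352 bp upstream of the last. The corresponding peaks ranked 3347, 2756 and 8434 in replicates 1, 2 and 3, with summits 264, 351 and 173 bp upstream of the last start. A second IDR peak, chrX:9156483-9156912, had rank 6344, just inside the IDR list, with its summit 29 bp upstream of the first start and in the sequence printed above. Replicates 2 and 3 gave it ranks of 6013 and 5918, while in replicate 1 the peak matched to it had rank 27810 and a summit 165 bp upstream. The third IDR peak, chrX:9152064-9152493, had rank 4870 and lay beyond the gene, with its summit in intergenic sequence 244 bp past the 3′ end. It ranked 3959 and 7407 in replicates 2 and 3 and had no counterpart in replicate 1. The replicates thus differed in which start of His3.3B was strongest, the intronic site between the middle and last starts in replicates 1 and 2 and the first start in replicate 3.

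For cid and BigH1 the promoter peaks were weaker. The gene cid lies at chr2R:13485617-13486631 on the plus strand, with 1 transcript. Its pooled peak, chr2R:13485373-13485802, had rank 7616, signal 156.3 and a −log10 q of 3.14, where IDR peaks all had 4.16, and lay outside the IDR list that ends at rank 6458. The summit was 29 bp upstream of the cid start and 197 bp upstream of that of cbc. The peak ranked 12141, 7976 and 7748 in replicates 1, 2 and 3 (mean 9290 ± 2470, SD, n = 3), with summits 98, 14 and 50 bp upstream of the start, so every replicate had a peak at this place and none had it among its strongest 6458. BigH1 lies at chr3R:14663450-14664822 on the plus strand, also with 1 transcript. Its promoter peaks ranked 9140 in replicate 2 and 11768 in replicate 3, with summits 2 bp apart, 227 and 229 bp upstream of BigH1 and 26 and 24 bp upstream of Rad17. Both lay between the opposed starts. A further peak in replicate 3, rank 24143, had its summit 5 bp upstream of the BigH1 start. Neither replicate 1 nor the pooled list held a peak at this promoter. BigH1 was thus 1 of 6 variant histone genes with a promoter summit in the full lists of both replicates 2 and 3 but not in the pooled list, against 7.51% of 6269 other genes.

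**Figure D2:**
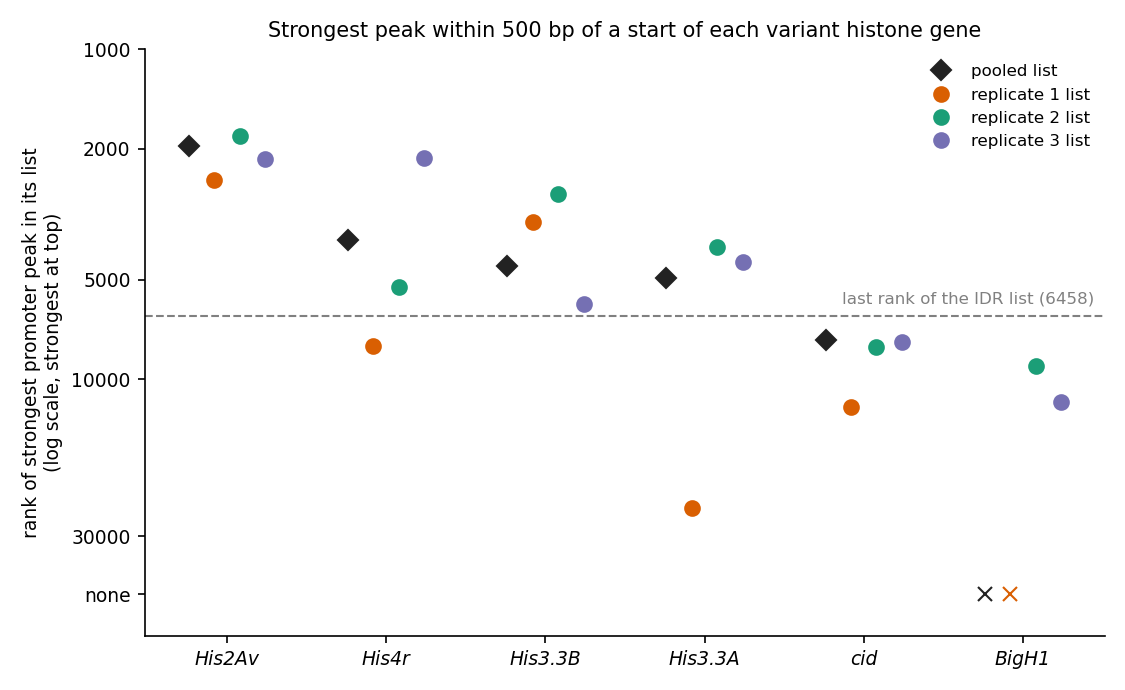
Rank of the strongest peak within 500 bp of a start of each variant histone gene, in the pooled list (diamonds) and in the lists of replicates 1, 2 and 3 (circles). The y axis is logarithmic with strong peaks at the top, the dashed line is the last rank of the IDR list, 6458, and crosses mark lists with no such peak. The 3 replicates of His2Av span 1830 to 2495, while those of His3.3A span 3973 to 24590.

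By pooled rank the order was His2Av (1964), His4r (3793), His3.3B (4528), His3.3A (4939) and cid (7616), with BigH1 not listed. Neighbours in this order were not separated by the ranks of their strongest promoter peak in each replicate. No pair of neighbours kept the same order in all 3 replicates. His4r was stronger than cid in every replicate (7947, 5256 and 2135 against 12141, 7976 and 7748), although their ranges overlapped. The replicate ranks of His4r, 2135 to 7947, overlapped those of His2Av, 1830 to 2495, and those of His3.3B, 2756 to 5918. Those of His3.3A, 3973 to 24590, overlapped those of both His3.3B and cid, 7748 to 12141. Among these 5 genes, the ranges that did not overlap were those of His2Av with His3.3B, His3.3A and cid, and that of His3.3B with cid. The His3.3B range mixes its intronic site, in replicates 1 and 2, with its first start, in replicate 3. At the intronic site alone its ranks were 3347, 2756 and 8434 in replicates 1, 2 and 3, and that range overlaps that of cid. The 2 ranks of BigH1, 9140 and 11768, lay within the range of cid and outside those of His2Av, His4r and His3.3B. The variant histone genes with an IDR peak stood below the middle of the other genes with one, apart from His2Av: the median rank of the strongest promoter peak over 3724 such genes was 2773. On position, among those genes 85.7% of summits were upstream of or at the nearest own start, with a median of 123 bp upstream and quartiles of -207 and -46 bp. The summits of His3.3A, His4r and His3.3B (its strongest peak) were downstream of the nearest own start in the pooled list and that of His2Av was upstream. For His4r and His3.3B the side of the nearest start differed between replicates. At the intronic site of His3.3B the summit was 264 bp upstream, 250 bp downstream and 173 bp upstream of the nearest start in replicates 1, 2 and 3. The strongest His3.3B peak lies between 2 starts, downstream of the middle one and upstream of the last in the pooled list and in every replicate.

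**Figure D3:**
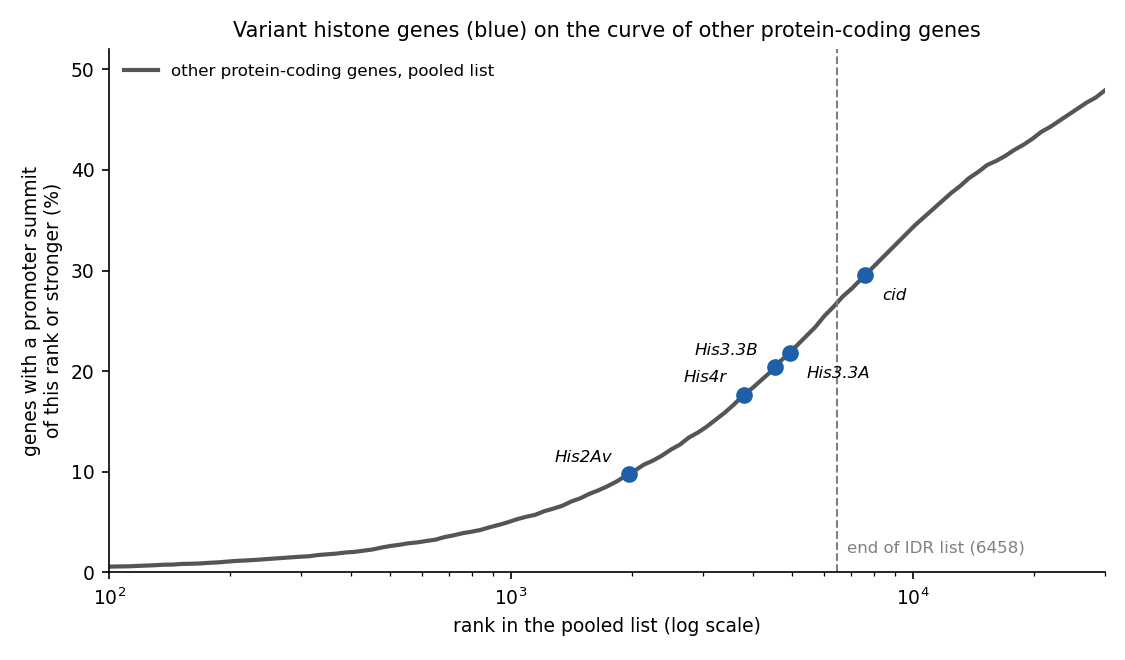
Share of other protein-coding genes (y axis, %) that had a promoter summit of a given rank or stronger in the pooled list (x axis, logarithmic). Blue points place the 5 variant histone genes with a pooled promoter summit at their own rank on this curve, and the dashed line is the end of the IDR list at rank 6458. His2Av, at rank 1964, stands apart from the 3 at ranks 3793 to 4939, and cid, at 7616, lies past the line.

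How well the IDR peaks repeated depended on the rule for a match. Under the rule of 50% of both peaks, with the strongest 6458 of each replicate list, 0 of 6 genes had a promoter IDR peak matched in all 3 replicates, against 12.6% of other genes. The count was 3, 0 and 1 when replicate 1, 2 or 3 was left out. For His2Av the rule could not be met: its pooled peak is 192 bp wide, under 50% of the width of the replicate peaks over it, at 404, 420 and 410 bp. Peaks narrower than 50% of the median width in replicate 1 made up 15.1% of the IDR list. With summits within 100 bp of each other in place of the overlap, a rule added once the values had been seen, His2Av was matched in all 3 replicates, 1 of 6 genes against 15.3%. Under this rule the count was 4 without replicate 1, 1 without replicate 2 and 2 without replicate 3. Taken singly, replicates 1, 2 and 3 had 2, 4 and 4 of the 6 genes with a promoter summit among their strongest 6458, against 23.7%, 26.4% and 29.4% of the other genes. Replicate 1 lacked His3.3A and His4r there.

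All 6 genes could be told apart from the rest of the genome by sequence. In every window all or nearly all 50-base sequences occurred once in the assembly, with 8094 of 8098 unique for His3.3B and all unique for the other five. The same held for the coding exons of His4r (211 of 211) and of both H3.3 genes (310 of 310 each), despite the shared proteins. In the histone array on chr2L, 21416953 to 21541681, only 1.44% of 50-base sequences were unique. None of its 111 genes had a summit within 2 kb in any of the 5 lists. How reads that map to several places were treated is not given in the sources used here, so no summit in the array says nothing of the protein there.

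Within 50 bp of the summits few of the 10 words were found. Both strands were searched. The core promoter words were the DRE, TATCGATA, the M1BP core, GTCACACT, and the TATA word, TATAAA. The words of other factors were CGATA of BEAF-32, which the DRE contains, CAGGTA of Zelda and GAGAG of GAGA factor. The rest were GCCAT of Pho, the homeodomain word TAATTA and the E-box CACGTG. The last was the CTCF core, AGGNGGC. The His2Av peak had CGATA, which 25.9% of promoter IDR peaks of other genes had. The His3.3A peak had the M1BP core, starting 1 bp before its second start, a word that 2.93% of those peaks had. The pooled cid peak had the M1BP core 8 bp after the start, together with CGATA and TATAAA. The TATAAA lay on the strand opposite to cid and at the start itself, not upstream of it. Of the pooled peaks outside the IDR list, 0.633% had the M1BP core, 12.7% had CGATA and 16.2% had TATAAA. These shares take promoter and other peaks together, and none was computed for the promoter peaks among them. The strongest His3.3B peak and the His4r peak had none of the words. The peak past the 3′ end of His3.3B had 2 CTCF cores, a word in 2.4% of all IDR peaks, and the one at the first start had GAGAG, a word in 8.34% of promoter IDR peaks of other genes. Base composition ranged widely, with 24.8% G and C at His4r, 31.7% at His3.3B, 38.6% at both His2Av and cid, and 45.5% at His3.3A, against a median of 34.7% for promoter IDR peaks of other genes.

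The genes whose promoter peaks came nearest to those of each variant histone gene in rank over the 3 replicates were found for the 4 with an IDR peak. For His2Av they were Zip99C and CG34133, which share a peak of ranks 2763, 1745 and 2029 (distance 0.0549 on the log10 rank scale). For His3.3A they were cdi and AdipoR, whose ranks in replicate 1 were 26791 and 25461 (distances 0.105 and 0.114). For His3.3B they were Gfat2 and Moca-cyp with a shared peak (0.0173), and for His4r CG9902 and FBXO11 (0.0434 and 0.0502).

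Genes that load, exchange or supply histones were listed beside the variant genes. The lists cover histone chaperones, the complexes that exchange H2Av, centromere loading and histone mRNA. Of 38 such genes, 14 (36.8%) had a promoter IDR summit, against the 26.7% of protein-coding genes given above, and 25 had a pooled one. Divergent starts were common among them too, at 27 of 38, and 12 of those 27 had a promoter IDR summit, against 49% of other genes with such a start. The count fell to 7, 5 and 4 without replicates 1, 2 and 3, that is with only IDR peaks matched in both others. It was 3 of 38 with the stronger 3229 IDR peaks, which were those of pont, Ino80 and dre4. Of the other protein-coding genes, 15.2% had a pooled promoter summit of rank 3234 or stronger. Nasp, pont and rept, 3 of 38, had promoter IDR peaks matched among the strongest of all 3 replicates, against 12.6% of other genes.

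The Domino and Tip60 complex and Ino80, which exchange H2Av, had 5 of 15 genes with a promoter IDR summit. This was 33.3%, against 26.7% of other protein-coding genes and 49% of those with a divergent start. The median pooled rank was 6534 over the 10 genes of this list with a pooled promoter summit. The strongest promoter peaks of the 38 genes, those of pont and Ino80, were among them. The helicase gene pont ranked 308 in the pooled list and 209, 411 and 343 in replicates 1, 2 and 3, stronger than any variant histone gene. Its partner rept ranked 4678, and 4760, 3667 and 6178 in the replicates. Ino80, which encodes a chromatin remodeller, ranked 895, and 767 and 720 in replicates 1 and 3, with no promoter peak in replicate 2. The ATPase gene dom itself and Tip60, which encodes the acetyltransferase, had no pooled promoter summit, nor did Gas41, Nipped-A and MrgBP. For dom the ranks were 9547 in replicate 2 and 4234 in replicate 3, and for Tip60 they were 9911 and 7616.

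A promoter IDR summit was present in 26.7% of other protein-coding genes, and in 49% of those with a divergent start, which 27 of the 38 listed genes had. Divergent starts were not counted list by list, so 26.7% alone is not the share to set beside each list. The median pooled rank of 7 genes for replication-coupled and other chaperones was 6149, and 5 of them had a promoter IDR summit (71.4%). They were Nasp, an H3-H4 chaperone, at rank 3586, Caf1-55 at 4372, Nlp and Nph on 1 shared peak at 6149, and the H2A-H2B chaperone gene Nap1. Those of the large and middle subunits of the CAF-1 complex had weaker pooled peaks of ranks 8512 and 13075. For H3.3 deposition, 2 of 5 genes had a promoter IDR summit, yem at rank 3620 and asf1 at 5725. In replicate 2 yem ranked 13544, and asf1 had no promoter peak in replicate 1. Hira, the H3.3 chaperone gene, ranked 10279 and Dek 8700. Among the 3 genes of FACT and Spt6, dre4 had rank 2330, Spt6 had 11407, and Ssrp had no promoter peak in any list. Slbp, the gene for the protein that binds the stem-loop of array histone mRNAs, had rank 5775 and was the only one of 6 genes of histone mRNA processing and the histone locus body with an IDR summit. Of the others, mxc, mute, FLASH and Lsm11 had no pooled promoter summit and Lsm10 had one of rank 15281. Neither centromere gene, cal1 (which encodes the loader of Cid) or Cenp-C, had a pooled promoter summit, and cid was below the IDR limit.

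As at BigH1, some of these promoters had peaks in replicates and none in the pooled list. Of 12 listed genes with a promoter summit among the strongest 6458 of both replicates 2 and 3, 3 had no pooled promoter summit: XNP (ranks 3713 and 4538), cal1 (5130 and 4072) and mute (3957 and 3270). These 3 were chosen after their values were seen. Of the 4 variant histone genes with such summits none lacked a pooled one (0 of 4), and among 3156 other protein-coding genes the share was 4.18%. The cause was not tested.

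**Figure D4:**
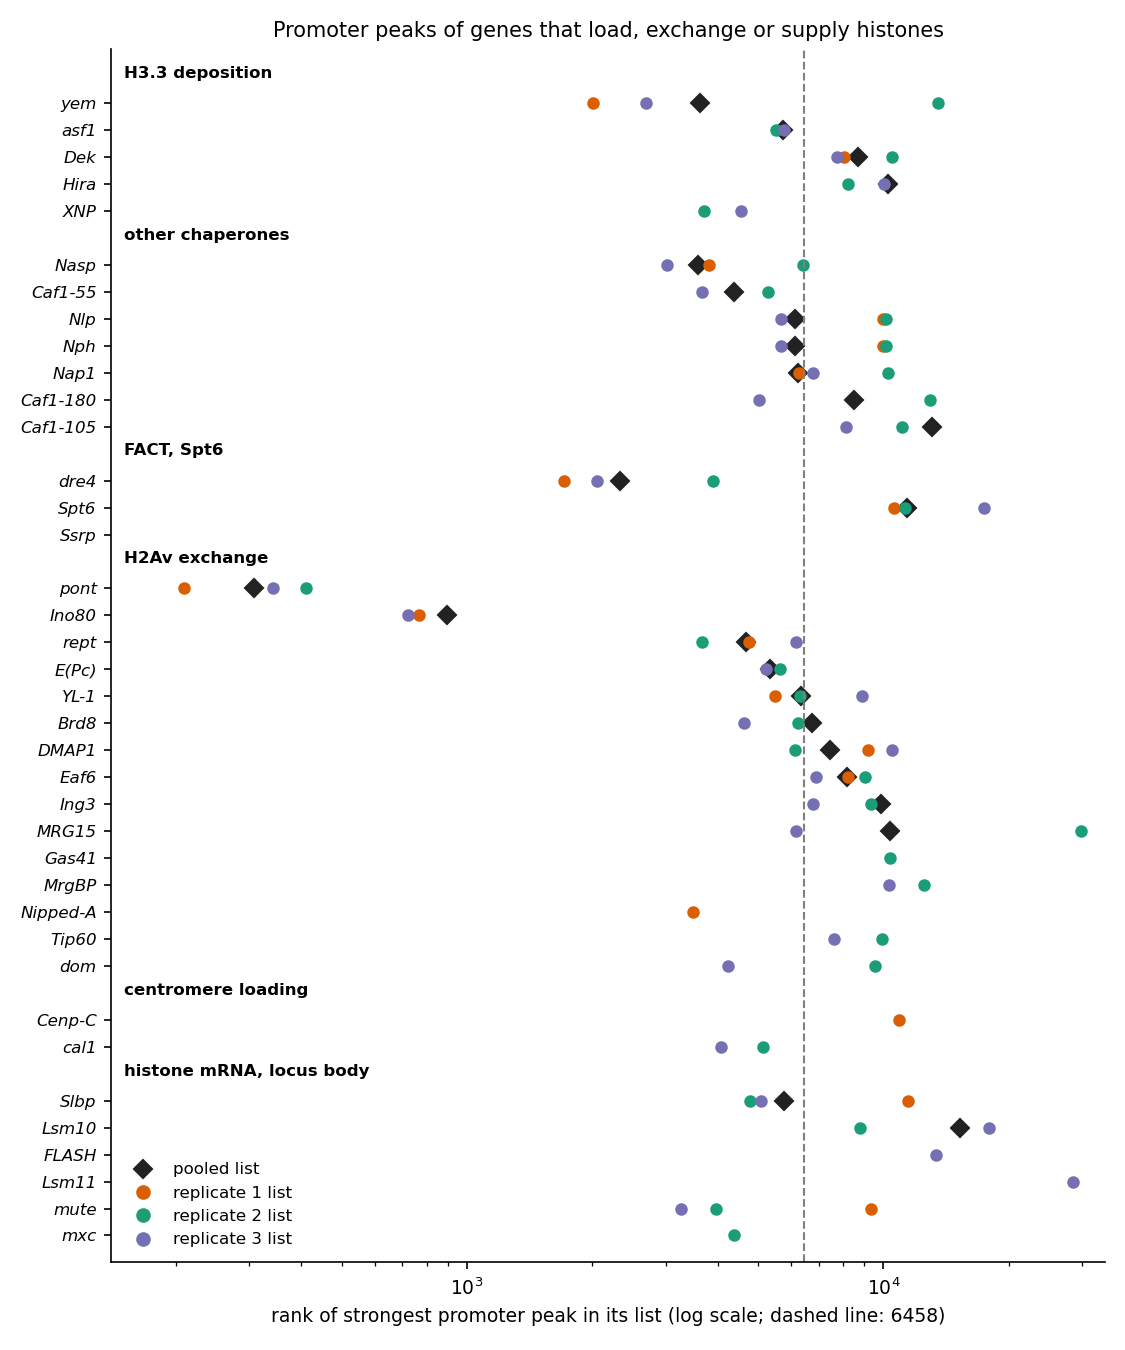
Rank of the strongest promoter peak (x axis, logarithmic) of 38 genes that load, exchange or supply histones, by role, in the pooled list (diamonds) and in the lists of replicates 1, 2 and 3 (circles). The dashed line is the last rank of the IDR list, 6458, and a missing symbol means no peak within 500 bp of a start. The peaks of pont and Ino80 stand apart at ranks under 1000. Without a diamond, XNP, cal1 and mute have circles of both replicates 2 and 3 left of the line, and dom, Nipped-A and mxc have a circle of 1 replicate there.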

How the data were processed

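Peak lists deposited by the authors were used for replicates 1, 2 and 3, for the replicates pooled and for IDR, on dm6 per the labels. Per the file headers of the deposited listings, each replicate list came from the alignments of that replicate and a control, the pooled list from the alignments of all 3 with the same control, and the IDR list from these 4 lists. What the control is, and which caller and aligner made them, is not given in the sources used here. For every deposited peak the authors give a summit, a signal and a −log10 q-value, and neither of these values was scaled between lists. All 6458 IDR peaks were also in the pooled list, as its 6458 strongest. Ranks by signal, summit offsets and overlaps were computed with Python 3.11.15, numpy 2.4.6 and pandas 2.3.3 from Ensembl release 115 genes and RefSeq sequence of genome release 6. Ensembl assembly names and dm6 refer to the same release 6 coordinates.

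Members and lists were chosen with earlier results of these data known. Named genes are the 6 members, genes starting within 500 bp of the member summits described, from each histone supply list the 3 strongest with a promoter IDR peak and up to 5 without, and the 2 nearest in rank over the replicates. Nap1 was added to complete its list. Of 38 symbols, 37 matched and Nasp matched as a synonym. With 1 group there is no contrast, so no p-value is given. Nothing shows whether the biological replicates came from separate cages. Code was tested on simulated peaks. One upstream sequence is not reported here.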

Additional observations from a re-analysis of the deposited data

How the results depend on the processing

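The counts of genes with an IDR summit in the window and of genes with one at the promoter, 4 of 6 each, were 5 with every pooled peak and 1 with the stronger 3229 IDR peaks. Leaving out a replicate, with IDR peaks matched in both others, gave 0 to 3 genes for each, never His2Av, whose narrow peak the overlap rule cannot match. Flanks of 0 bp, 1 kb and 5 kb gave 3, 4 and 6 genes for the window, and promoter windows of 250 and 1000 bp or RefSeq starts gave 4 each for the promoter. No share of other genes was computed for these flanks, promoter windows or RefSeq starts, nor with a replicate left out. The same holds for the gene window with every pooled peak or with the stronger IDR peaks. A wider flank takes in more summits at any gene, so 6 at 5 kb has no share to be read against. The number of genes matched in all 3 replicates, 0, was 1 with 1 bp of overlap, 1 with summits within 100 bp, 3 with every peak of the replicate lists, and 4 with both every peak and 1 bp. It was 0 with 80% of both peaks. Leaving out a replicate gave 0 to 3, and 1 to 4 with summits within 100 bp. The rules with summits and with 1 bp over every peak were chosen after the data were seen. The histone supply count of 14 was 3 with the stronger IDR peaks, 25 with every pooled peak, 12 and 14 in windows of 250 and 1000 bp, and 4 to 7 without a replicate. The median rank over the 5 genes with a pooled promoter peak was 4528 in the pooled list and 7947 in replicate 1, against 3973 and 4414 in replicates 2 and 3. Their median offset was 20 bp downstream in the pooled list and -98 bp in replicate 1, with 5 and -19 bp in replicates 2 and 3. No paired analysis between groups was possible because there is 1 group. Read depth is unknown, so an absent peak is a limit of these lists only.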
